A study of Mus musculus with 4 samples.

Results

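The transcription factors that set microglial identity were followed through the libraries, each found by its symbol. The 9 genes were Spi1, Irf8, Runx1, Sall1, Sall3, Mef2a, Mef2c, Bhlhe40 and Bhlhe41. All 9 of 9 had counts and passed the filter on low counts, among 49993 genes with a count and 21439 genes tested. Microglia, the resident macrophages of the brain, had been taken from mouse brain at 10 months of age by their surface CD11b with magnetic beads. Every mouse carried the APP/PS1 transgenes, a model of the amyloid of Alzheimer's disease. In 2 libraries the genotype was APP/PS1+ asrij+/+ (AD), and in the other two it was APP/PS1+ asrij-/- (AD/KO), a constitutive deletion of asrij, the gene Ociad1, that was not restricted to microglia. CD11b is also found on neutrophils, monocytes and other macrophages, so the selection did not separate microglia from them. The labels did not say whether a library held 1 animal or a pool, and p-values measure the spread between these libraries only.

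Spi1 encodes PU.1, an ETS factor on which all macrophage lineages depend, and Irf8 and Runx1 act with it from the embryonic precursor onwards. The zinc finger factor Sall1 is, among macrophages, a feature of microglia and keeps their resting programme, and Sall3 is its close relative. Mef2a and Mef2c are MADS-box factors whose sites lie in microglial enhancers, and Mef2c is also a neuronal gene. Bhlhe40 and Bhlhe41 are paired basic helix-loop-helix repressors that bind E-boxes, act within the circadian clock and have been placed upstream of lipid and lysosomal genes in macrophages.

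Promoter sequence was in hand for 6 of the 9 genes, over 12 RefSeq starts (GRCm38.p6). The 250 bases before each start were searched on both strands for letters that members of these families recognise. The letters were GAGGAA (the PU.1 box), CACGTG (the E-box, which reads the same on either strand), TGTGGT (the RUNX core) and the IRF repeat, which is GAAA followed by any NN and a second GAAA. The paired Mef2 genes are shown, and both hold a PU.1 box, in capitals. The start of Bhlhe41 held no PU.1 box. Whether these letters relate to the levels of the genes was not tested. The Mef2a sequence (chr7:67372859-67373108, minus strand) lies inside the RefSeq span of the gene and meets no exon of the GENCODE M21 annotation. The Mef2c sequence (chr13:83503784-83504033, plus strand) lies at the 5′ edge of its gene and meets no GENCODE exon either.
Mef2a: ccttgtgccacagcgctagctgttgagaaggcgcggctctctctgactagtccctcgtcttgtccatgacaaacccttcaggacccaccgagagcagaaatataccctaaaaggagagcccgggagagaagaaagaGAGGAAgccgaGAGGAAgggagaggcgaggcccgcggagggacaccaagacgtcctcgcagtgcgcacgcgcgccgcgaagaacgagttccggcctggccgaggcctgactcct
Mef2c: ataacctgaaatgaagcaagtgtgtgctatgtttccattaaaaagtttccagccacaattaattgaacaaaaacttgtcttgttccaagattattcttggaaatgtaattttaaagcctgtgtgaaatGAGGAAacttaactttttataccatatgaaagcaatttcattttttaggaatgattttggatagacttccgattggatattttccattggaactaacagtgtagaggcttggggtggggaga
An E-box stood 71 bases before the upstream start of Runx1 and 153 bases before the start of Bhlhe41, itself a gene for an E-box factor. The 30 bases around each are shown with the E-box in capitals (Runx1, chr16:92826128-92826157, minus strand; Bhlhe41, chr6:145865556-145865585, minus strand). The 250 bases that hold each window overlap an exon of the same gene in GENCODE M21, by an extent that was not measured. Whether the windows themselves lie within the GENCODE gene was not checked.
Runx1: catcacttaagtCACGTGattggcaagagc
Bhlhe41: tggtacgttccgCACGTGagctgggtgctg
A PU.1 box also stood before the second starts of Mef2c and Runx1. No match to any of the 4 motifs stood before the most downstream start of Mef2c or the starts of Irf8 and Sall1. In the same window, 23.3% of all 32817 promoters held a PU.1 box and 6.02% an E-box. No match to the RUNX core or the IRF repeat was found before any of the 12 starts, and 14.0% and 2.97% of all promoters held one. A match is a run of letters, and binding was not measured.

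The deleted gene was checked first. Ociad1 (gene ID 68095, chromosome 5, 73292769 to 73314077) stood at 50.2 and 63.4 CPM (counts scaled to library size by TMM) in AD and at 38.9 and 32.1 CPM in AD/KO. Its transcript was thus lower but present in both libraries labelled AD/KO (log2 fold change −0.68, SE 0.29, adjusted p = 0.680 by edgeR's quasi-likelihood test), and every direction here is between labels. The libraries held 13102622 to 19810076 reads. The microglial marker Cx3cr1 was abundant in all 4, at 962 to 3107 CPM. The summed level of 29 homeostatic microglia genes, a list with none of the 9 factors, was 33852 and 23980.4 CPM in AD and 34216 and 12206 CPM in AD/KO. Neuron markers summed to 381 and 1269.8 CPM in AD and to 957 and 3016 CPM in AD/KO, with 12 of 12 higher in AD/KO. Astrocyte markers summed to 1957 and 4648.5 CPM in AD and to 4852 and 12385 CPM in AD/KO, with 10 of 10 higher. No marker of either list was at 0 reads in any library. Neutrophil markers summed to 4757 CPM in AD replicate 2 and to 381 to 576 CPM in the other libraries, and Xist, made in female cells, had 1391 reads in AD replicate 2 and 3 to 15 elsewhere. Monocyte markers summed to 213 and 745 CPM in AD and to 105 and 139 CPM in AD/KO, with 8 of 8 lower and 6 of them without overlap. Markers of border-associated macrophages summed to 138 and 103 CPM in AD and to 70.3 and 61.1 CPM in AD/KO, with 7 of 8 lower and 6 without overlap. Of all genes tested, 47.2% were higher in AD/KO and 52.8% lower, and 21.7% were lower without overlap. The sums of both lists were lower in each AD/KO library than in either AD library. In AD replicate 2, Chil3 held 294 and Cd177 179 of the 745 CPM of monocyte markers, and both genes overlapped between groups. Like the neutrophil markers, both were high in that library alone (Chil3 10.6 to 25.7 CPM and Cd177 19.2 to 27.2 CPM elsewhere). That part of the sum cannot be assigned to monocytes, and the part of neutrophils in it was not tested. Libraries that stood apart were AD replicate 2 by blood cell markers and Xist, and AD/KO replicate 2 by its low microglial and high neural markers. In bulk RNA, fewer cells of a type and less RNA per cell cannot be told apart.

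Of the 9 factors, 8 were lower in AD/KO (52.8% of all genes tested were) and Bhlhe40 alone was higher, directions that all turned when neural markers were held as a covariate. Of the 9, 0 passed the threshold by edgeR's quasi-likelihood test (0% of all genes did). At an unadjusted p of 0.05, where 5.0% of all genes tested passed, the number was also 0. DESeq2 called 0 of the 9 (smallest adjusted p 0.689, with 0.261% of all genes called). In simulated counts, the adjusted edgeR test recovered 0% of genes changed by 1 or 2 on the log2 scale, and 79.5% at 3. Changes of the size seen in the factors were not recovered there, so the lack of calls does not show equal levels. The groups overlapped for each of the 9 factors, while they did not overlap in 42.0% of all genes. The median log2 fold change of the 9 was −0.55, against −0.05 for all genes. The spread within AD/KO was the main feature. For the 8 factors other than Bhlhe40, AD/KO replicate 1 held 2.11 to 3.84 times the level of AD/KO replicate 2, and AD replicate 1 held 1.27 to 1.90 times that of AD replicate 2. AD/KO replicate 1 alone stood at 82.2% to 122% of the AD mean, and AD/KO replicate 2 at 24.4% to 43.8%.

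**Figure D1:**
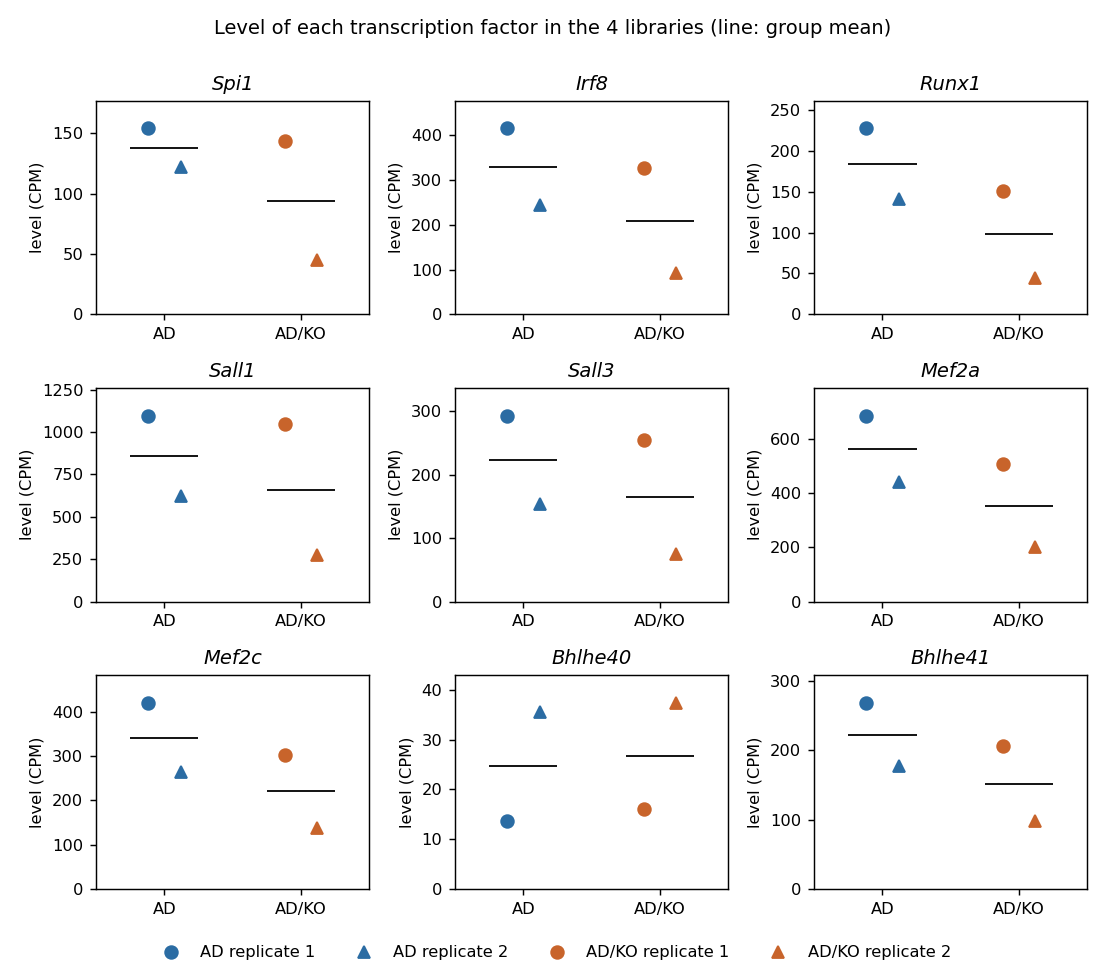
Level of each of the 9 transcription factors in CPM (vertical axis, from 0, one scale per gene) in the 4 libraries, with AD in blue, AD/KO in orange, replicate 1 as circles, replicate 2 as triangles and the group mean as a line. In 8 genes the order is replicate 1 above replicate 2 in both groups, and in Bhlhe40 it is the reverse.

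Spi1 (gene ID 20375, chromosome 2, 91082374 to 91115759) was measured at 154 and 122 CPM in AD (2124 and 1981 reads) and at 143 and 45.1 CPM in AD/KO (2751 and 832 reads). The first AD/KO library lay between the AD libraries, and the second lay far below both. Group levels were 138 ± 22.9 and 94.3 ± 69.5 CPM (SD, n = 2 each), and the log2 fold change was −0.55 (SE 0.60, adjusted p = 0.743, edgeR quasi-likelihood). Without AD/KO replicate 2 it turned to 0.07.

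Irf8 (gene ID 15900, chromosome 8, 120736358 to 120756694), the interferon regulatory factor that pairs with PU.1 on composite sites, had levels of 416 and 244 CPM in AD and 328 and 91.6 CPM in AD/KO. Again only AD/KO replicate 2 lay outside the AD range. The means were 329.7 ± 122 and 209.6 ± 167 CPM (SD, n = 2 each), with a log2 fold change of −0.65 (SE 0.70, adjusted p = 0.741, edgeR quasi-likelihood). Leaving out AD/KO replicate 2 brought the value to 0.0013.

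Runx1 (gene ID 12394, chromosome 16, 92601466 to 92826074), a factor of blood and macrophage precursors, had the most negative fold change of the 9. It was at 228 and 141 CPM in AD and at 151 and 45.04 CPM in AD/KO. AD/KO replicate 1 was 82.2% of the AD mean but still above AD replicate 2, so the groups overlapped. The means were 184 ± 61.2 and 98.2 ± 75.2 CPM (SD, n = 2 each), and the log2 fold change was −0.91 (SE 0.66, adjusted p = 0.682, edgeR quasi-likelihood). It stayed negative without any 1 library, from −1.98 without AD/KO replicate 1 to −0.27 without AD/KO replicate 2.

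Sall1 (gene ID 58198, chromosome 8, 89027242 to 89044162) was the most abundant of the 9 and stood at the 99.6th percentile of all genes tested by mean CPM. Its levels were 1096 and 622 CPM in AD and 1045 and 272 CPM in AD/KO, so that the first AD/KO library nearly matched the higher AD library. The group levels were 859 ± 335 and 658 ± 546 CPM (SD, n = 2 each), and the log2 fold change of −0.38 (SE 0.78, adjusted p = 0.852, edgeR quasi-likelihood) was the nearest to 0 of the 8. It turned to 0.08 without AD replicate 1 and to 0.29 without AD/KO replicate 2.

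Sall3 (gene ID 20689, chromosome 18, 80966989 to 80987021) followed Sall1 closely, at 293 and 154 CPM in AD and 255 and 75.5 CPM in AD/KO. The log2 fold change was −0.43 (SE 0.69, adjusted p = 0.809, edgeR quasi-likelihood), and it turned to 0.10 and 0.20 without the same libraries. The log2 ratio of Sall1 to Sall3 reads within a library, which does not depend on scaling, was 1.90 and 2.02 in AD and 2.04 and 1.85 in AD/KO. The ratio thus stayed between 1.85 and 2.04 while AD/KO replicate 1 held 3.84 times the Sall1 level of AD/KO replicate 2.

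Mef2a (gene ID 17258, chromosome 7, 67231163 to 67376456) was at 686 and 443 CPM in AD and at 507 and 203 CPM in AD/KO. The means were 565 ± 172 and 355 ± 215 CPM (SD, n = 2 each), with a log2 fold change of −0.67 (SE 0.60, adjusted p = 0.705, edgeR quasi-likelihood). Its exons overlap those of Lysmd4 on the other strand over 302 bases, 2.06% of their length.

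Mef2c (gene ID 17260, chromosome 13, 83504017 to 83667079) had 419.8 and 264 CPM in AD and 303 and 138 CPM in AD/KO. The log2 fold change was −0.64 (SE 0.53, adjusted p = 0.700, edgeR quasi-likelihood). Within a library the log2 ratio of Mef2a to Mef2c reads was 0.71 and 0.75 in AD and 0.74 and 0.56 in AD/KO. Only AD/KO replicate 2, the library with the most neuron marker reads, departed from the other three, towards Mef2c. Whether neural RNA contributed to that was not tested.

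Bhlhe41 (gene ID 79362, chromosome 6, 145858243 to 145865420) was at 268 and 177 CPM in AD and at 206 and 97.5 CPM in AD/KO. The log2 fold change was −0.55 (SE 0.50, adjusted p = 0.707, edgeR quasi-likelihood). The transcript Gm43909 on the other strand covers 19.0% of its exons, and whether counting used strand is not given in the sources used here. Its relative Bhlhe40 (gene ID 20893, chromosome 6, 108660629 to 108666925) was the lowest of the 9 and the exception to their pattern. Bhlhe40 was at 13.7 and 35.6 CPM in AD (189 and 579 reads) and at 16.1 and 37.3 CPM in AD/KO (308 and 688 reads). Replicate 2 was high and replicate 1 low in both groups, and the groups covered nearly the same range. The log2 fold change was 0.11 (SE 0.64, adjusted p = 0.946, edgeR quasi-likelihood), and it turned negative without AD replicate 1 (−0.43) or AD/KO replicate 2 (−0.61).

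The 2 genes of this pair thus moved apart between libraries of the same genotype. The log2 ratio of Bhlhe40 to Bhlhe41 reads was −4.29 and −2.31 in AD and −3.68 and −1.38 in AD/KO. The difference between groups, 0.77, was smaller than the SD within either group (1.39 in AD and 1.62 in AD/KO; exact two-sided permutation p = 0.667, where 4 libraries allow no p below 0.333). In AD the second library had 2.59 times the Bhlhe40 level of the first, and in AD/KO 2.33 times. The neuron marker sum was 3.34 and 3.15 times higher and the astrocyte sum 2.38 and 2.55 times higher in the same libraries. Between groups, Bhlhe40 was at 13.7 against 16.1 CPM in replicate 1 and 35.6 against 37.3 CPM in replicate 2. There the neuron sums were 381 against 957 CPM and 1270 against 3016 CPM. The astrocyte sums were 1957 against 4852 CPM and 4648 against 12385 CPM. The part of neural RNA in the Bhlhe40 level was not tested.

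**Figure D2:**
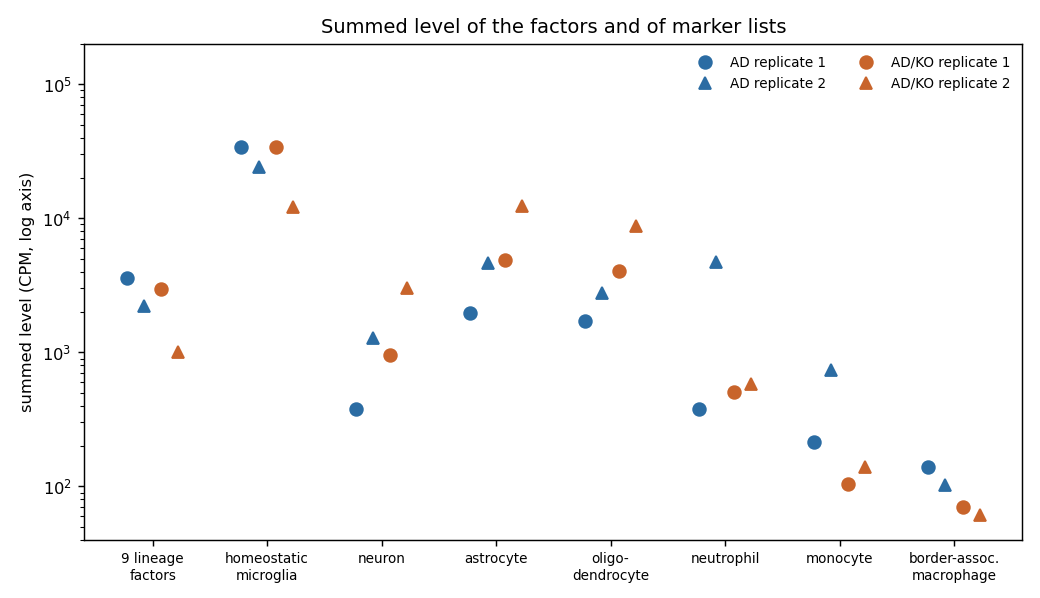
Summed level in CPM (vertical log axis) of the 9 factors and of marker lists of cell types in each library, with AD in blue, AD/KO in orange, replicate 1 as circles and replicate 2 as triangles. The factors and the homeostatic list are lowest in AD/KO replicate 2, where neuron and astrocyte markers are highest, and AD replicate 2 alone is high in neutrophil markers.

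Summed over the 9 factors, the level was 3575 and 2202 CPM in AD and 2953 and 1005 CPM in AD/KO. AD/KO replicate 1 exceeded AD/KO replicate 2 by 2.94-fold, close to the 2.80-fold of the homeostatic list. When the mean log2 level of neuron and astrocyte markers entered the fit as a covariate, all 9 directions turned, to between 0.04 and 0.68 for the 8 factors and to −1.10 for Bhlhe40. That fit had 1 residual degree of freedom, and 0 of the 9 passed in it (adjusted p from 0.225 to 0.992, edgeR quasi-likelihood).

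**Figure D3:**
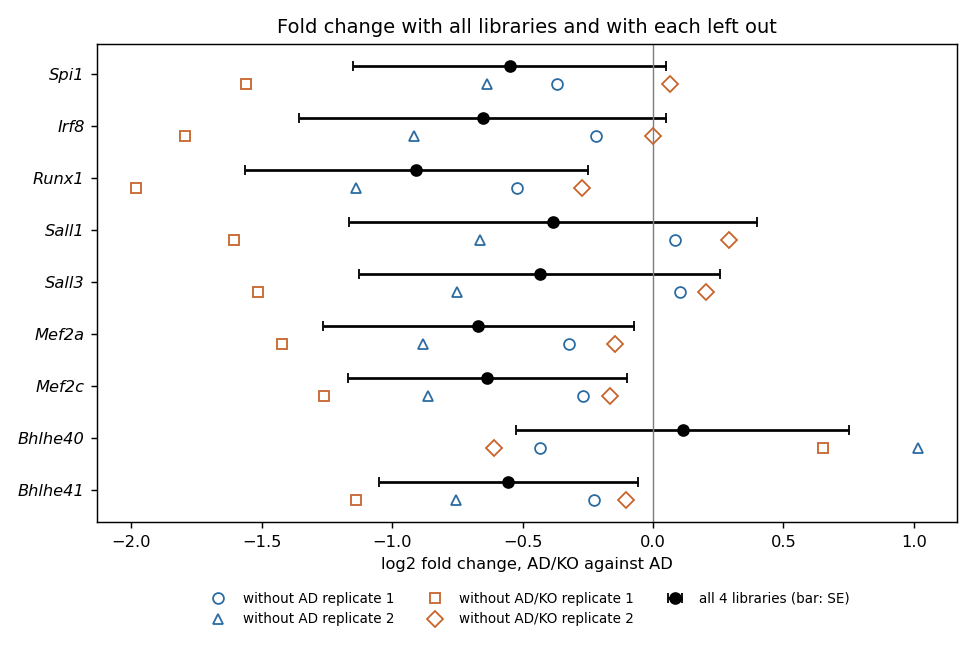
Log2 fold change of AD/KO against AD for each factor (horizontal axis), as black points with bars of 1 SE for all 4 libraries and as open symbols for fits that each leave out 1 library. For the 8 factors other than Bhlhe40, the leftmost symbol is the fit without AD/KO replicate 1 and the rightmost the fit without AD/KO replicate 2.

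Levels between genes were compared per length, in RPKM, reads scaled to exon length and library size. Sall1 led at 163 ± 63.7 RPKM in AD and 125 ± 104 RPKM in AD/KO (SD, n = 2 each), above Spi1 in 4 of 4 libraries by a mean of 1.69 on the log2 scale. Spi1 stood at 57.2 and 45.2 RPKM in AD and at 53.2 and 16.8 RPKM in AD/KO. Irf8 (46.7 and 29.7 RPKM, means of AD and AD/KO), Mef2a (38.5 and 24.2 RPKM), Bhlhe41 (33.2 and 22.6 RPKM) and Sall3 (29.8 and 22.1 RPKM) followed. From Spi1 to Sall3, each gene was above the next in only 3 of 4 libraries, so their order was not settled. Mef2c (21.8 and 14.0 RPKM) lay below Sall3, and Runx1 (15.3 and 8.17 RPKM) below Mef2c, in 4 of 4 libraries. The place of Mef2c below Sall3 depends on the exon length used, and no other length was tried. In CPM, Mef2c (means of 342 in AD and 220 in AD/KO) stood above Sall3 (223 and 165). Bhlhe40 came last at 5.24 and 5.67 RPKM, but in AD/KO replicate 2, where Runx1 was at 3.75 RPKM, it stood at 7.94 RPKM and above it.

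Ratios to Spi1 within a library asked whether any factor differed relative to the core lineage factor. Runx1 alone among the 8 had groups that did not overlap, with both AD/KO libraries the lower, as in 2.56% of all other genes tested (0 of the 8 were higher without overlap, where 18.2% were). Its log2 ratio to Spi1 was 0.56 and 0.21 in AD and 0.08 and −0.0035 in AD/KO, a difference of −0.35 (exact two-sided permutation p = 0.333, the smallest that 4 libraries allow). For Irf8, Sall1, Sall3, Mef2a, Mef2c and Bhlhe41 the difference lay between −0.11 and 0.15 and was smaller than the larger SD within the groups. That of Bhlhe40 was 0.91, with an SD of 1.21 in AD and 2.04 in AD/KO.

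Against the homeostatic list, 4 of the 9 factors had both AD/KO values under both AD values, as 5.70% of all genes did. The reverse held for 0 of the 9 and for 6.96% of all genes. The 4 were Spi1, Irf8, Mef2a and Runx1. Runx1 stood at −1.68 and −1.84 from the list mean in AD and at −2.24 and −2.38 in AD/KO, on the log2 scale, the widest gap of the 4. For Mef2a the nearest libraries of the groups were at −0.19 (AD replicate 2) and −0.21 (AD/KO replicate 2), nearly the same level. The gap was also narrow for Spi1, at −2.24 (AD replicate 1) and −2.31 (AD/KO replicate 1). For Irf8 the nearest were at −1.05 (AD replicate 2) and −1.12 (AD/KO replicate 1). Scaling the edgeR fit to the list moved the median of all genes to 0.67 and gave −0.55 for Runx1, −0.31 for Irf8, −0.21 for Mef2a and −0.20 for Spi1, with adjusted p from 0.873 to 0.948 (quasi-likelihood test). Sall1 and Sall3 were both at −0.06 in that fit.

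**Figure D4:**
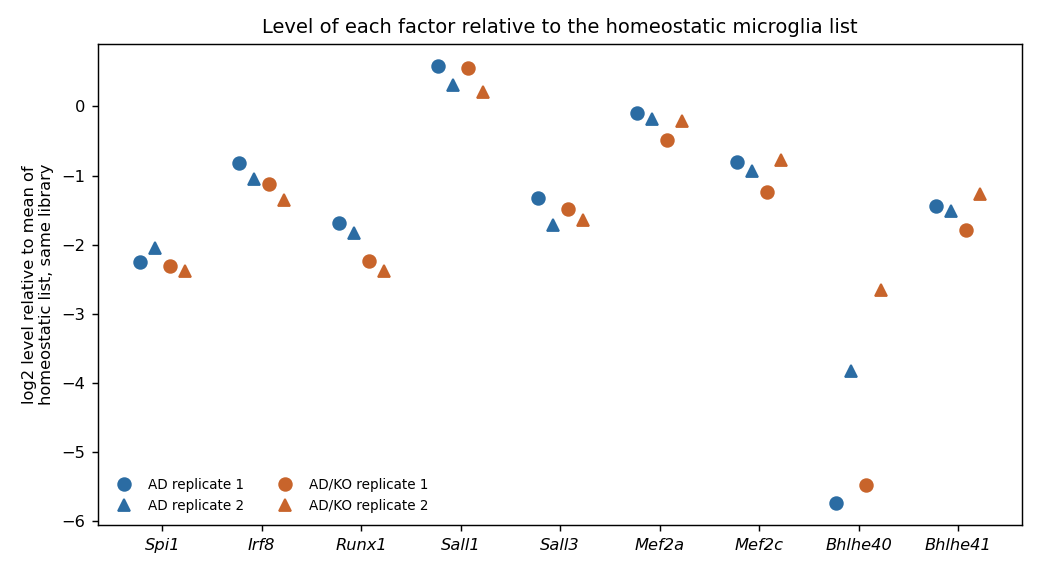
Log2 level of each factor minus the mean log2 level of the homeostatic microglia list in the same library (vertical axis), with AD in blue, AD/KO in orange, replicate 1 as circles and replicate 2 as triangles. Runx1 has both AD/KO libraries below both AD libraries with a clear gap, and Bhlhe40 is spread over more than any other factor.

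The likeness of patterns was measured as the root mean square difference of centred log2 CPM over the 4 libraries. Mef2c and Bhlhe41 were the closest of the 9, at 0.05, and Sall1 with Sall3 and Mef2a with Mef2c both stood at 0.08. Bhlhe40 differed from each other factor by 1.14 to 1.42. Among 13768 other genes with a mean of at least 5 CPM, the nearest to Spi1 were Gm52494 (0.014), Klk8 (0.017) and Rnase4 (0.028), a ribonuclease of the homeostatic list. Irf8 was nearest to Lpar6 (0.031), Tgfbr2 (0.034), a receptor chain for TGF-beta, and Rubcnl (0.034). Sall1 was nearest to P2ry6 (0.015), a microglial nucleotide receptor, Gm24175 (0.030) and Slco2b1 (0.043), and Sall3 to Rab3il1 (0.011), Gal3st4 (0.030) and Slc29a3 (0.033). Mef2a ran with Dock10 (0.012), Gm46371 (0.016) and Kctd12 (0.023), and Mef2c with Rcbtb2 (0.015), Gm38935 (0.019) and Gm20045 (0.019). Runx1 was closest to Primpol (0.023), Gm46608 (0.032) and Gcnt1 (0.035), Bhlhe41 to Ptprj (0.013), Slc38a9 (0.014) and Gm40180 (0.021), and Bhlhe40 to Gm52132 (0.023), Ccdc9b (0.057) and Gm46108 (0.070). With only 4 libraries, many genes can come this close.

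Relatives and partners of the factors were followed as lists. In none of these lists did a gene pass the threshold by edgeR's quasi-likelihood test without a replicate term. Of 12 ETS factors tested, 12 were lower in AD/KO, with a median log2 fold change of −0.59. That median turned to 0.05 with the neuron and astrocyte covariate and was −0.17 with scaling to the homeostatic list. Groups did not overlap for Spib and Gabpa, both lower (21.7% of all genes were lower without overlap and 20.3% higher). Spib was near the filter on low counts, at 18 and 16 reads in AD and 3 and 12 reads in AD/KO. The most negative fold change by the naming rule was that of Elf1, a broadly expressed ETS factor, at 94.9 and 62.6 CPM in AD and 64.3 and 28.1 CPM in AD/KO (log2 fold change −0.77, SE 0.50, adjusted p = 0.680). Of 8 other interferon regulatory factors, 7 were lower, with a median of −0.54 that became −0.02 with scaling to the homeostatic list and 0.14 with the covariate. Irf4, Irf7 and Irf9 were lower without overlap. Irf7, which amplifies the type I interferon response, was at 16.5 and 10.3 CPM in AD and 8.03 and 6.78 CPM in AD/KO (log2 fold change −0.85, SE 0.42, adjusted p = 0.680). Irf3, the factor that starts that response, was the exception at 54.4 and 49.97 CPM against 61.2 and 51.2 CPM (log2 fold change 0.11, SE 0.27, adjusted p = 0.880).

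Partners of the SALL, MEF2 and RUNX factors went both ways. In the list of SALL relatives and of the NuRD complex, the corepressor that SALL factors recruit, 3 of 8 tested were higher and 5 lower, with a median of −0.12 that turned to 0.57 with scaling to the homeostatic list and to 0.11 with the covariate. Sall2, a relative expressed in neural cells, ran against Sall1 and Sall3, at 52.5 and 65.7 CPM in AD and 72.2 and 105.0 CPM in AD/KO (log2 fold change 0.58, SE 0.33, adjusted p = 0.680), with no overlap. Mta1 was also higher without overlap, and Rbbp4 and Rbbp7 were lower without it. That made 2 of 8 higher and 2 of 8 lower without overlap, near the 20.3% and 21.7% of all genes. Hdac1 had the most negative value of that list (log2 fold change −0.27, SE 0.36, adjusted p = 0.778).

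Of the MEF2 relatives and regulators, 5 of 7 tested were higher and 2 lower, with a median of 0.03. The median became −0.0037 without the filter on low counts, −0.05 with the covariate and 0.84 with scaling to the homeostatic list. Class IIa histone deacetylases, which bind and silence MEF2 factors, went different ways. Hdac9 was at 167 and 126 CPM in AD and 105 and 73.0 CPM in AD/KO without overlap (log2 fold change −0.72, SE 0.35, adjusted p = 0.680). Hdac7 was at 42.5 and 112 CPM in AD and 89.3 and 195 CPM in AD/KO with overlap (log2 fold change 0.89, SE 0.63, adjusted p = 0.682), and Hdac5 was higher without overlap. Of the 7, 1 was higher and 1 lower without overlap, where 20.3% and 21.7% of all genes were.

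Of the RUNX list, 2 of 7 were higher and 5 lower, with a median of −0.12. That median turned to 0.57 with scaling to the homeostatic list and was −0.05 with the covariate. Cbfb, the subunit that RUNX factors need for stable DNA binding, was at 54.4 and 52.2 CPM in AD and 42.6 and 25.3 CPM in AD/KO (log2 fold change −0.65, SE 0.35, adjusted p = 0.680), without overlap. Runx3, named after its values were seen, was also lower without overlap, at 3.63 and 3.75 CPM against 0.782 and 0.651 CPM (log2 fold change −2.35, SE 0.56, adjusted p = 0.680). Runx3 is also made by blood-derived cells, the monocyte markers were low in the same libraries, and their part was not tested. Runx1t1, a corepressor also made in neural tissue, was at 7.62 and 18.4 CPM in AD and 17.2 and 40.5 CPM in AD/KO (log2 fold change 1.14, SE 0.63, adjusted p = 0.680). Of the 7, 2 were lower without overlap (21.7% of all genes were) and 0 higher (20.3% of all genes).

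Bhlhe40 and Bhlhe41 repress the same E-box genes that CLOCK and BMAL1 activate. In the fit without covariates the clock list ran opposite to the 8 factors, while Bhlhe40 was itself higher (log2 fold change 0.11). With the neuron and astrocyte covariate they no longer ran opposite, at 0.04 to 0.68 for the 8 factors and a median of 0.42 for the clock list. A link between the pair and the clock genes was not tested. Of 11 clock genes tested, 10 were higher in AD/KO (47.2% of all genes were), with a median log2 fold change of 0.91, and in 8 the AD/KO libraries lay above both AD libraries (20.3% of all genes did). At an unadjusted p of 0.05 the number was 2 of 11 (Per1 and Dbp), both higher, where 5.0% of all genes passed, and 0 passed after adjustment by edgeR's quasi-likelihood test. Dbp, an output gene of the clock, was at 14.7 and 18.4 CPM in AD and 37.3 and 41.5 CPM in AD/KO (log2 fold change 1.25, SE 0.30, adjusted p = 0.680). Per1 was at 64.3 and 64.4 CPM in AD and 108 and 176 CPM in AD/KO, and Per3 at 63.3 and 65.1 CPM against 99.9 and 102 CPM. For these 3 genes the AD libraries lay close together and the AD/KO libraries well above them.

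Per2, Cry1, Cry2, Nr1d1 and Tef were the other five without overlap. Clock was on the other side, with a log2 fold change of −0.20 (SE 0.29, adjusted p = 0.793, edgeR quasi-likelihood). Arntl, the gene of BMAL1, was at 26.8 and 29.9 CPM in AD and 23.8 and 45.6 CPM in AD/KO, with overlap. The clock list's median was 0.52 without AD/KO replicate 2, 0.42 with the neuron and astrocyte covariate and 1.72 with scaling to the homeostatic list. Of the astrocyte markers, 9 of 10 were likewise higher without overlap, at the sums given above, and their part in the clock genes was not tested. The labels gave no time of day for the collection.

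**Figure D5:**
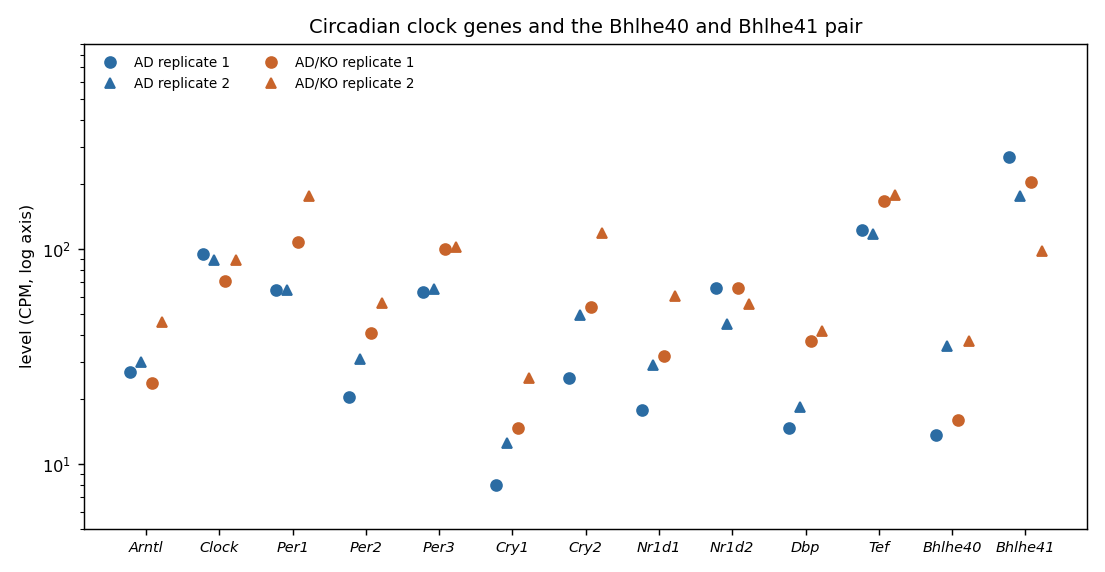
Level in CPM (vertical log axis) of 11 circadian clock genes and of Bhlhe40 and Bhlhe41 in each library, with AD in blue, AD/KO in orange, replicate 1 as circles and replicate 2 as triangles. For 8 clock genes both orange symbols lie above both blue ones, and for Dbp, Per1 and Per3 with a wide gap.

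Of 42 other transcription factors of macrophages, 37 were lower and 5 higher, with a median log2 fold change of −0.51 that turned to 0.02 with scaling to the homeostatic list and to 0.20 with the covariate. Groups did not overlap for 13 of the lower genes (21.7% of all genes were lower without overlap) and for 3 of the higher ones (20.3% of all genes). At an unadjusted p of 0.05 the number was 3 of 42, near the 5.0% of all genes. They were Klf2, Hif1a and Egr2, all lower. Atf3, a stress-induced factor, had the most negative value among those of at least 5 CPM, at 16.8 and 11.99 CPM in AD and 8.18 and 1.95 CPM in AD/KO (log2 fold change −1.501, SE 0.75, adjusted p = 0.680). Id2, an inhibitor of basic helix-loop-helix factors, had the most positive value, at 11.3 and 25.2 CPM in AD and 19.7 and 44.7 CPM in AD/KO (log2 fold change 0.82, SE 0.59, adjusted p = 0.682). The order of its libraries was close to that of Bhlhe40, with replicate 2 the higher in each group.

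Genes known to depend on PU.1 and IRF8 were counted next. Of 14 PU.1 target genes, 14 were lower, with a median log2 fold change of −0.73. That median became 0.02 with the covariate and −0.34 with scaling to the homeostatic list. Of the 14, 6 were lower without overlap (21.7% of all genes were). Csf1r, the receptor on which microglial survival depends, was not among these 6, at 5314 and 3183 CPM in AD and 5529 (AD/KO replicate 1) and 1684 CPM (AD/KO replicate 2). Msr1, a scavenger receptor, had the most negative fold change, at 10.9 and 10.2 CPM in AD and 2.24 and 1.79 CPM in AD/KO (log2 fold change −2.38, SE 0.44, adjusted p = 0.680, edgeR quasi-likelihood). Unlike Spi1, it was low in both AD/KO libraries, as were the monocyte and border-associated macrophage markers, cells that share many PU.1 and IRF8 targets. Their part in either list of targets was not tested.

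Of 9 IRF8 target genes, 9 were lower, with a median of −0.59. That median became 0.0030 with the covariate and −0.22 with scaling to the homeostatic list. Of the 9, 4 were lower without overlap (21.7% of all genes were), namely Tlr2, Il1b, Ctss and Cybb. For Ctss the nearest libraries were at nearly the same level, 1460 CPM (AD replicate 2) and 1454 CPM (AD/KO replicate 1). Cybb, the catalytic subunit of the phagocyte oxidase, was at 68.3 and 229 CPM in AD and 26.1 and 31.7 CPM in AD/KO (log2 fold change −2.36, SE 0.64, adjusted p = 0.680, edgeR quasi-likelihood). Its high value in AD replicate 2 coincided with the neutrophil markers of that library, cells that also express Cybb, and their part was not tested.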

How the data were processed

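Whole-number read counts per gene symbol, 1 table per library, were used as the authors deposited them, not normalized. Per the submitters' processing notes, FastQC, HISAT2, SAMtools, featureCounts (Subread) and DESeq2 1.30.0 were used with mm10. The annotation and strand setting are not given in the sources used here. In each file 11 lines held no readable count, none for a gene reported here, and 0 columns lacked a sample. Reads carry no molecular identifiers.

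Genes were kept by filterByExpr (minimum count 10, minimum total 15), scaled by TMM and tested on all 4 libraries without covariates with edgeR 4.0.16 (R 4.3.3), quasi-likelihood F-test, Benjamini-Hochberg adjusted over all genes tested at 0.05. The SE is the log2 fold change divided by the square root of F. The biological coefficient of variation was 44.5%. Libraries held 13102622 to 19810076 reads, so 10 reads are under 1 CPM. RPKM used union exon lengths from GENCODE M21 (GRCm38), and log2 values of reads a prior of 0.5. All symbols of the 9 factors and Ociad1 matched RefSeq GRCm38.p6, which gave coordinates (counted from 1) and promoters.

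Named were the 9 factors, Ociad1, the widest rise and fall of each list at a mean of at least 5 CPM, and the 3 nearest genes to each factor. Genes named for not overlapping were picked with their values in view. The factors and lists were chosen with earlier results of these data known. DESeq2 1.42.0 and the other alternatives are given at the end. Scripts were tested on simulated data.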

Additional observations from a re-analysis of the deposited data

How the results depend on the processing

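Among 297 recomputed values, 236 held (same sign and same call, or within the replicate spread), 16 moved further, 1 came to pass the threshold and 44 changed direction. Counts of factors and clock genes in a direction under each setting were added after seeing the data. The 9 factors kept their directions under DESeq2 as the test, DESeq2 size factors, both filters, the replicate block and scaling to the homeostatic list.

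With all 4 libraries, edgeR's quasi-likelihood test called 0 genes after adjustment and 1072 before it. The called number was 88 with DESeq2's own test, and from 0 to 524 with 1 library left out, namely 48 without AD replicate 1, 524 without AD replicate 2 and 0 without either AD/KO library. The labels do not say that replicate numbers mark a shared litter, batch or day. Deviations of same-numbered libraries correlated across genes at 0.64. With 2 libraries per group, exchanging the numbers within 1 group would reverse that sign, so the value cannot show that the numbers mark a block. With the replicate block 4333 genes passed (20.2% of those tested), 2878 higher and 1455 lower (6.79%), among them Runx1 alone of the factors (−1.11, adjusted p = 0.0285). The other factors had adjusted p from 0.0617 to 0.590 in that fit (edgeR quasi-likelihood), which, like the covariate fit, left 1 residual degree of freedom. It also called list genes that had not passed: 7 of 11 clock genes, all higher (13.4% of all genes were called higher), 12 of 42 other macrophage factors (11 lower, 1 higher), and, all lower, 4 of 14 PU.1 targets, 3 of 9 IRF8 targets, 2 of 12 ETS and 1 of 8 IRF factors. In the MEF2 and RUNX lists it called 1 higher and 1 lower each, and in the SALL and NuRD list 0. Astrocyte markers passed in 9 of 10 and neuron markers in 12 of 12, all higher.

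With the neuron and astrocyte covariate, the number of factors lower in AD/KO went from 8 to 1. Values were 0.19 for Spi1, 0.36 for Irf8, 0.043 for Runx1, 0.68 for Sall1, 0.67 for Sall3, 0.15 for Mef2a, 0.15 for Mef2c, 0.18 for Bhlhe41 and −1.10 for Bhlhe40. List medians were then 0.053 (ETS), 0.14 (IRF), 0.11 (SALL and NuRD), −0.054 (MEF2), −0.047 (RUNX), 0.42 (clock), 0.20 (other macrophage factors), 0.025 (PU.1 targets) and 0.0030 (IRF8 targets). With scaling to the homeostatic list they were −0.17 (ETS), −0.023 (IRF), 0.57 (SALL and NuRD), 0.84 (MEF2), 0.57 (RUNX), 1.72 (clock), 0.017 (other macrophage factors), −0.34 (PU.1 targets) and −0.22 (IRF8 targets). Without the filter the MEF2 median was −0.0037. The cause was not tested.

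With each library left out in turn, fold changes ran from −1.56 to 0.067 for Spi1, −1.80 to 0.0013 for Irf8, −1.98 to −0.27 for Runx1, −1.61 to 0.29 for Sall1, −1.51 to 0.20 for Sall3, −1.42 to −0.15 for Mef2a, −1.26 to −0.17 for Mef2c, −0.61 to 1.02 for Bhlhe40 and −1.14 to −0.10 for Bhlhe41. From 5 to 8 factors were lower (5 without AD/KO replicate 2), and 9 to 11 clock genes were higher. List medians ran from −0.95 to −0.13 (ETS), −0.96 to −0.044 (IRF), −0.22 to 0.041 (SALL and NuRD), 0.0023 to 0.23 (MEF2), −0.23 to −0.05 (RUNX), 0.52 to 1.20 (clock), −1.05 to −0.026 (other macrophage factors), −1.61 to −0.13 (PU.1 targets) and −1.44 to −0.10 (IRF8 targets). Differences in log2 ratio ran from −0.38 to 1.92 (Bhlhe40 to Bhlhe41), −0.17 to 0.016 (Mef2a to Mef2c) and −0.11 to 0.075 (Sall1 to Sall3). Against Spi1 they ran from −0.33 to 0.11 (Irf8), −0.52 to −0.17 (Runx1), −0.10 to 0.37 (Sall1), −0.14 to 0.45 (Sall3), −0.19 to 0.16 (Mef2a), −0.20 to 0.33 (Mef2c), −0.53 to 2.36 (Bhlhe40) and −0.15 to 0.44 (Bhlhe41). Where 1 library is left in a group, it is assumed to vary like the other group.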
